A study of Mus musculus with 24 samples.

Results

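Whole intestinal tissue of adult mice was compared with that of newborn mice. The aim was to see how the gut differs between birth and adulthood in its epithelium, its stroma and its immune cells. The comparison used 8 of the 24 arrays of the series, chosen by their labels: 4 of adult tissue and 4 of P0 tissue, P0 being the day of birth. The other 16 arrays hold organoids, which are cultures of intestinal epithelium, grown in ENR medium from E19 fetal or adult intestine for 3 or 30 days. They serve here as a measure of what epithelium expresses by itself. Fetal organoids at day 3 are a limited measure, because they also gave signal for genes of connective tissue and leukocyte lists. The labels name no genotype, treatment, strain, sex, adult age or intestinal segment for the tissue. Nor do they tell whether each array is a different animal. The p-values then reflect only how far arrays, organoid arrays included, scatter within their groups, part of which may be technical.

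Levels are log2 signals, and a difference is adult minus P0, so that 1 log2 unit is a 2-fold difference. Brackets give the fold, the log2 difference with its standard error, and the adjusted p-value of limma's moderated test. Means are over 4 arrays a group, and the adjustment is over all 30705 genes tested. The standard error and the p-value come from the fit of all 24 arrays, so scatter among organoid arrays also enters them. A gene was called when this adjusted p was under 0.05. Where the mean of 1 group lay below the median of the array's negative controls, a lower limit of the fold is given as "at least", and where both means lay there the means are given without a fold.

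The newborn gut is built to take up milk. Its enterocytes swallow intact milk proteins through surface receptors and break them down in large lysosomes, while after weaning, proteins and starch are cut at the cell surface and absorbed by transporters. Paneth cells form in the crypts after birth, and lymphocytes and plasma cells fill the mucosa as microbes settle. Fibroblasts, muscle, vessels and enteric nerves surround the epithelium at both ages.

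The arrays were checked against the labelled tissue first. Medians of all probe sets lay between 4.24 and 4.43, and medians of negative controls between 4.18 and 4.61, highest on adult array 1 and lowest on adult array 4. The defining epithelial genes Epcam, Cdh1, Krt8, Vil1 and Cdx2, the muscle genes Myh11, Actg2, Des and Acta2 and the fibroblast genes Col1a1, Col3a1 and Dcn were clear of the controls on all 8 arrays. The stomach genes Atp4a and Gkn1, the pancreatic acinar genes Cpa1 and Cela2a, and the colon genes Car1 and Hoxb13 stayed at or near the controls, at group means of 5.25, 4.21, 4.68, 4.86, 2.66 and 3.23 in P0 and 5.45, 4.42, 4.66, 5.01, 2.78 and 3.33 in adult tissue. Of the whole colon list, 5 of 14 genes were higher, Car4 among them, and 2 lower, and its mean level ran from 5.32 to 5.53 on the P0 and from 6.01 to 6.04 on the adult arrays. The part of colon tissue in the differences was not tested. The mean level of a list of heat shock and early response genes, which react to handling, ran from 6.33 to 6.55 on the P0 and from 6.31 to 6.61 on the adult arrays, with 2 of 12 higher and 1 lower. Xist, which is transcribed from the inactive X chromosome of females, read 10.60, 3.81, 4.01 and 10.53 on P0 arrays 1 to 4 and 3.77 to 4.24 on the adult arrays, so P0 arrays 1 and 4 stood apart from the others.

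Adult array 1 stood apart from the other adult arrays in genes of gut position. Fabp6, the bile acid binding protein of the ileum, read 9.62, 4.56, 4.80 and 4.55 on adult arrays 1 to 4 and 4.25 to 4.77 on the P0 arrays. Slc10a2, the bile acid carrier of the ileum, read 7.18, 3.42, 3.40 and 3.34 on the adult arrays and 2.94 to 3.26 on the P0 arrays. Onecut2, a transcription factor of the proximal small intestine, went the other way, at 4.31, 8.01, 7.53 and 7.63 on the adult arrays and 6.99 to 8.14 on the P0 arrays. The labels do not say from which segment each tissue piece came, so a result that adult array 1 carries is also given without it. For genes whose level varies along the gut, age and segment cannot be told apart.

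**Figure D1:**
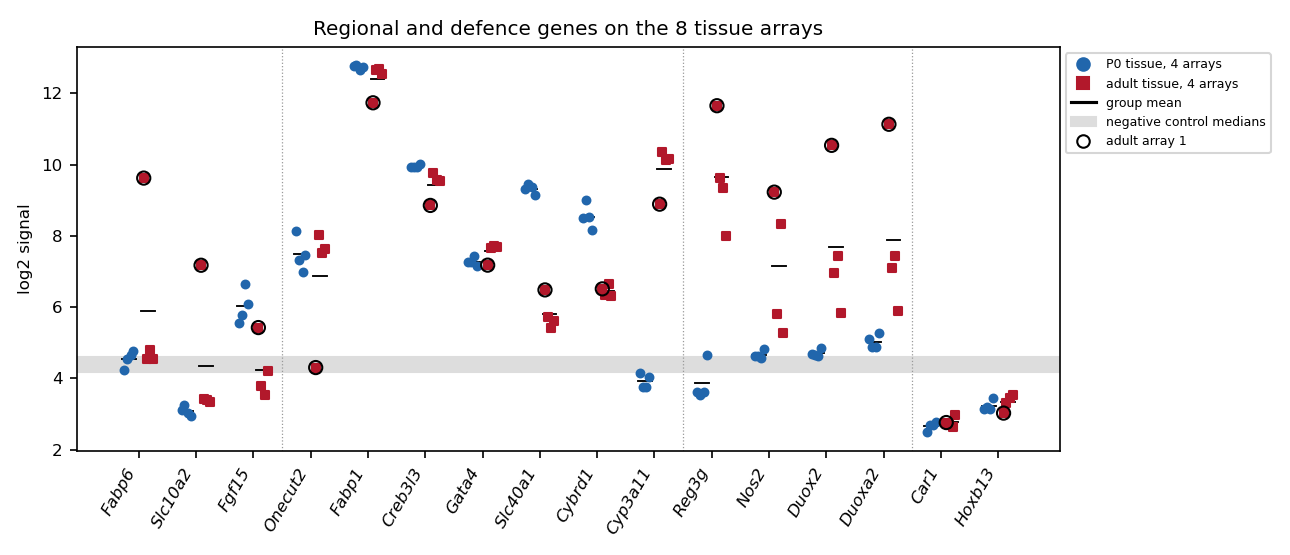
Log2 signals of genes of the distal small intestine (Fabp6, Slc10a2, Fgf15), of genes higher in the proximal small intestine or named for it here, of mucosal defence genes and of 2 colon genes on the 8 tissue arrays; each point is an array, black lines are group means and a ring marks adult array 1. Adult array 1 reads 9.62 for Fabp6 where the other adult arrays read 4.55 to 4.80, and it is also the highest array for Reg3g, Nos2, Duox2 and Duoxa2.

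Of the 30705 genes, 4600 (15%) were called higher and 3733 (12.2%) called lower in adult tissue. At least 2-fold higher were 799 genes (2.6%), and at least 2-fold lower were 766 (2.49%). Centring each array on its median shifted the median difference of all genes from 0.08 to 0.00 and moved the split to 3080 higher and 4594 lower. A second quantile normalization gave 3554 higher and 4688 lower. Of the 231 genes named in the text, 229 kept their direction and their call under either of these scalings.

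Gene lists for 24 epithelial, 13 stromal and 14 immune cell types or functions moved apart. They were chosen with earlier results of these data known, so their shares of calls may partly reflect that choice. Of 350 genes in epithelial lists, 144 (41.1%) were higher and 70 (20.0%) lower in adult tissue, against 15% and 12.2% of all genes. Of 196 genes in stromal lists, 13 (6.63%) were higher and 126 (64.3%) lower. Of 190 genes in immune lists, 115 (60.5%) were higher and 19 (10%) lower. The median difference was 0.31 in the epithelial, -0.64 in the stromal and 0.43 in the immune lists, against 0.08 over all genes. Of these lists, 27 had 0 calls of limma's test in 1 direction, and at an unadjusted p under 0.05 these directions held 7 genes, 4 of them enteroendocrine genes. In whole tissue, fewer cells of a type and less RNA per cell cannot be told apart.

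**Figure D2:**
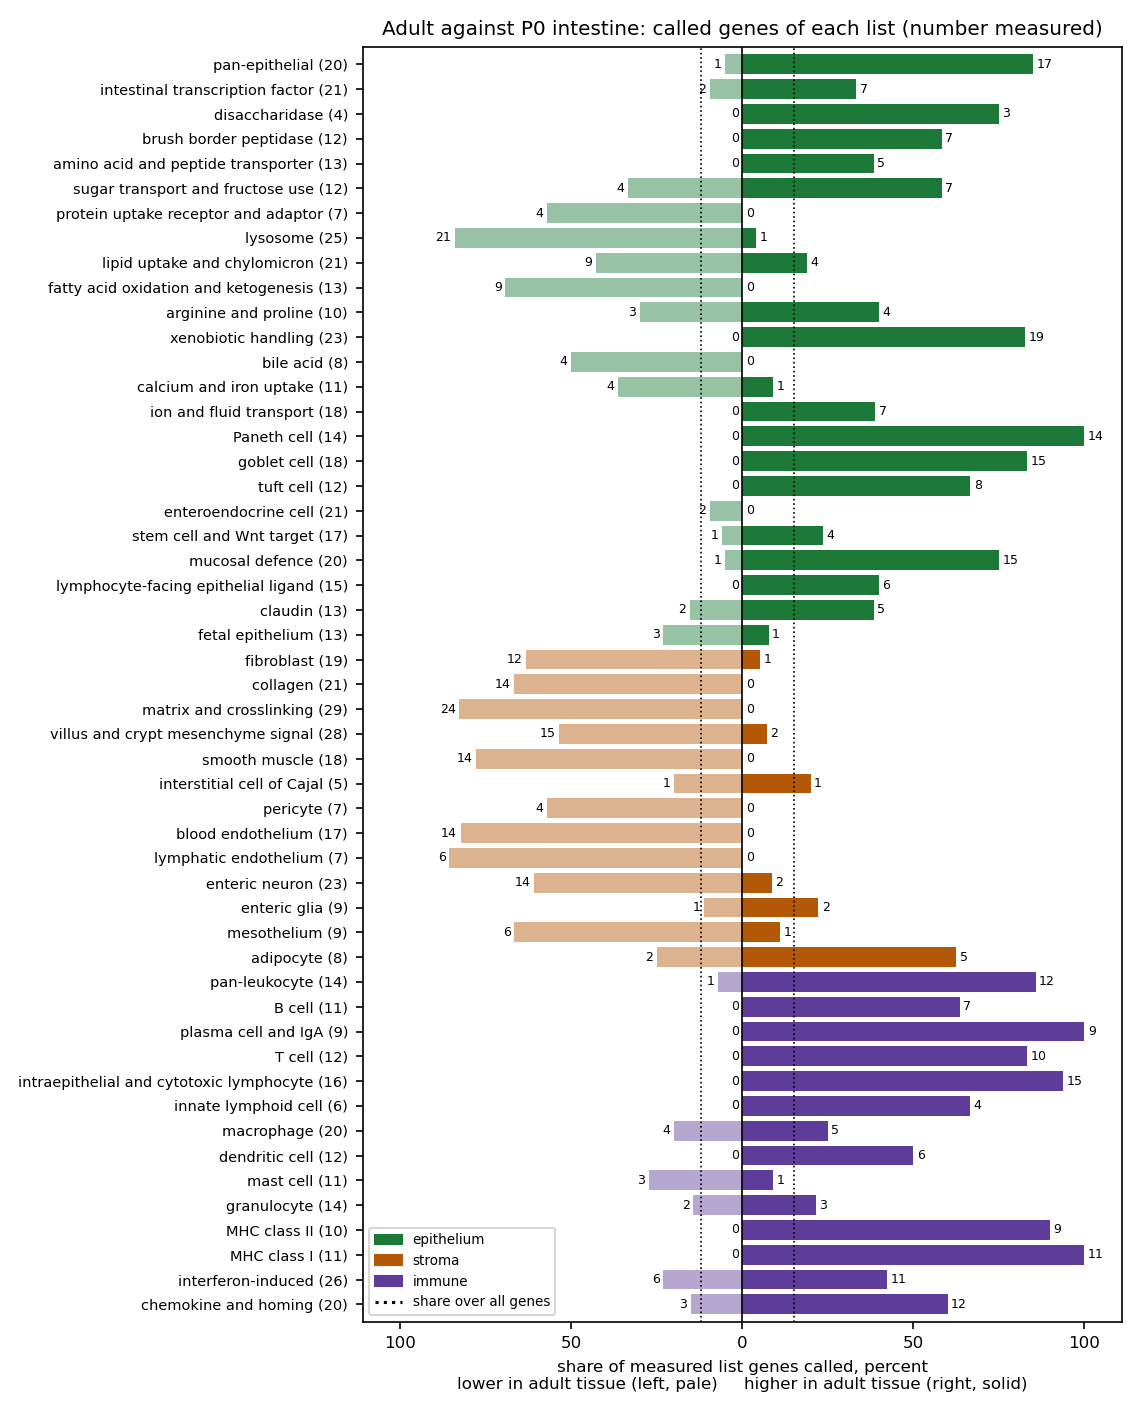
Share of each list's measured genes called lower (left, pale) or higher (right, solid) in adult than in P0 intestine, with the number called beside each bar and the number measured after the list's name; dotted lines mark the shares over all genes, 12.2% lower and 15% higher. Stromal lists lie mostly to the left, immune lists mostly to the right, and epithelial lists split by function. The lists were chosen with earlier results of these data known.

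Genes shared by all epithelial cells were higher in adult tissue. Of the 20 genes of the pan-epithelial list, 17 were higher and 1 lower in adult tissue, and their mean level ran from 8.396 to 8.50 on the P0 arrays and from 9.01 to 9.34 on the adult arrays. Vil1, which bundles actin in microvilli, read 10.44, 10.25, 10.30 and 10.25 in P0 and 11.45, 11.35, 11.44 and 11.24 in adult tissue, with no overlap (2.09-fold higher, 1.06 ± 0.11, adjusted p = 9e-08). Cdh1, the adhesion protein E-cadherin, read 10.43, 10.51, 10.44 and 10.38 in P0 and 11.22, 10.91, 10.98 and 10.82 in adult tissue (1.46-fold higher, 0.54 ± 0.09, adjusted p = 6.4e-05). Ap1m2, a sorting adaptor of epithelial membranes, was the exception (1.28-fold lower, -0.35 ± 0.09, adjusted p = 0.0039). When every array was centred on this list, 0.69 log2 units were taken from every difference, so that smaller rises turned into falls. The median of all genes shifted from 0.08 to -0.61, and 743 genes were higher and 27293 lower. On that scale 0 of the 196 stromal genes were higher, and 41 of the 190 immune genes were higher and 87 lower. Genes that were higher still outnumbered those that were lower in the plasma cell (5 and 1), intraepithelial lymphocyte (9 and 2), MHC class II (7 and 1) and MHC class I (3 and 1) lists, but not in the pan-leukocyte (2 and 3), B cell (0 and 6), T cell (3 and 4), dendritic cell (2 and 6) and chemokine (2 and 11) lists. On the same scale the majority also turned to lower in the claudin (2 and 8), ion and water transport (6 and 7), tuft cell (1 and 4), stem cell (3 and 10), interferon-induced (5 and 16) and macrophage (1 and 15) lists. Of the called genes named here, Cdh1, Coro1a, Fgf7, H2-Ob and Vip turned from higher to lower.

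**Figure D3:**
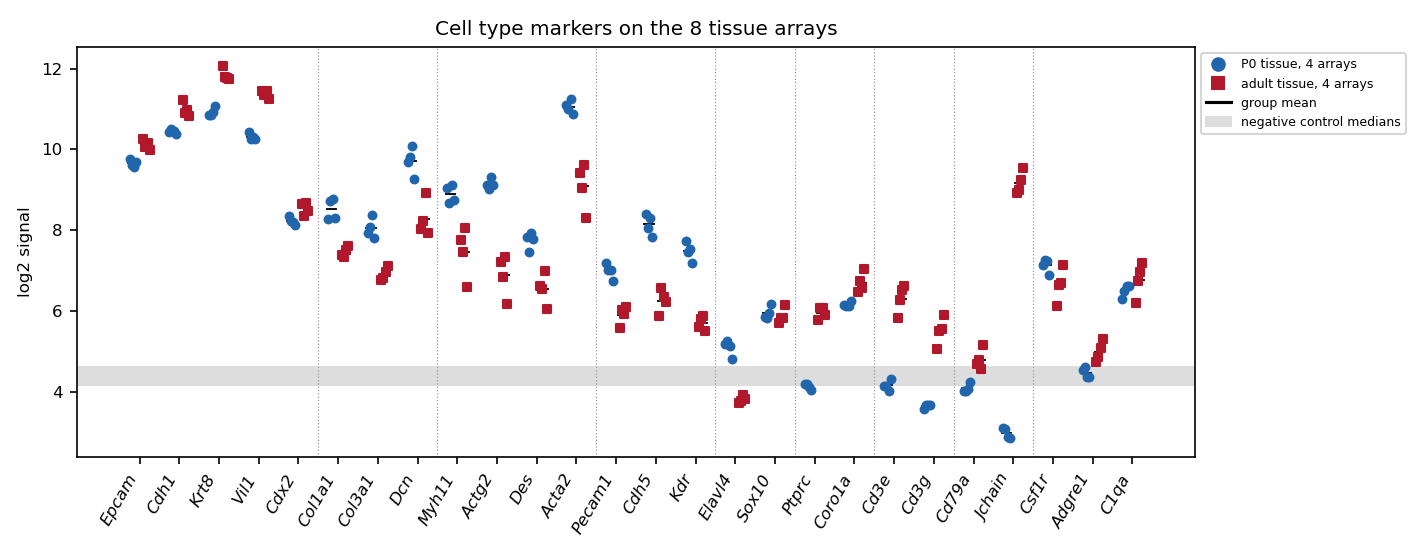
Log2 signals of defining genes of, from left to right, epithelium, fibroblasts, smooth muscle, blood vessels, enteric neurons and glia, all leukocytes, T cells, B and plasma cells, and macrophages; points are arrays, black lines are group means and the grey band spans the negative control medians of the 8 arrays. Vil1 and Krt8 are higher on every adult array, and the muscle and vessel genes are lower on every adult array. Jchain, Cd3e and Ptprc lie above the grey band on the adult arrays only.

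Organoids gave a second view of which differences can be epithelial. A gene counted as clear in organoids when it lay at least 2 log2 units over the negative controls in adult organoids of either day or in fetal organoids of day 30. Of the 799 genes at least 2-fold higher in adult tissue, 450 (56.3%) were clear in organoids, 184 (23.03%) were low and 149 (18.6%) lay below the controls in every organoid group, against 36.0%, 29.9% and 31.2% of all genes. Of the 766 genes at least 2-fold lower in adult tissue, 286 (37.3%) were clear, near the share of all genes, 266 (34.7%) were low, 94 (12.3%) were at background and 120 (15.7%) were clear in fetal day 3 organoids alone, a class that held 2.91% of all genes. Folr1, Meltf, Tfec, Mcoln3, Serpina1e and Dab2, all at least 2-fold lower in adult tissue, belong to it and are described with their functions further on. The class is not of epithelial genes alone. It also held 10 of the 21 measured collagens, 7 of 29 other matrix genes and 7 of 20 macrophage genes.

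**Figure D4:**
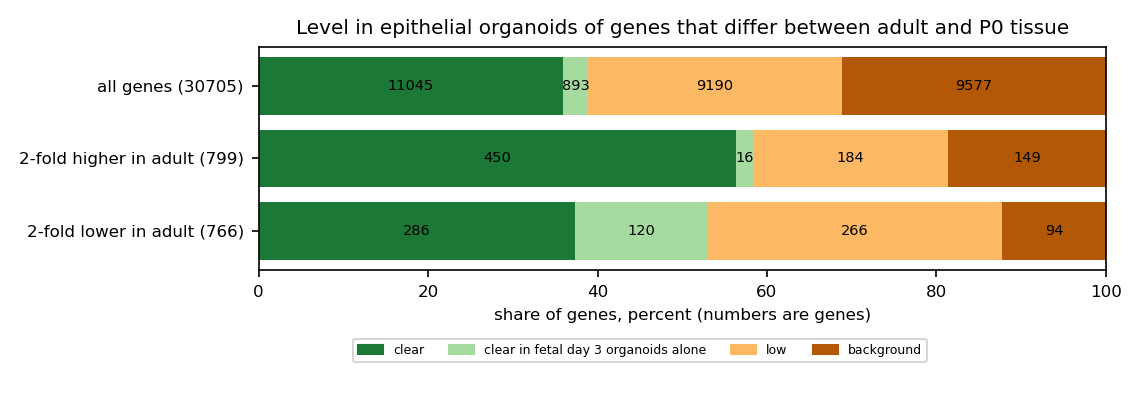
Shares of all genes, of genes at least 2-fold higher in adult tissue and of genes at least 2-fold lower in adult tissue by their level in organoids; the numbers in the bars are genes. Genes clear in organoids make up 450 of the 799 higher and 286 of the 766 lower genes, and 120 of the lower genes are clear in fetal day 3 organoids alone.

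Sucrase and trehalase genes were far higher in adult tissue, and lactase was not. Sis, the sucrase and isomaltase of the brush border, read 4.69, 5.38, 4.82 and 5.12 in P0 and 11.89, 11.91, 12.05 and 11.39 in adult tissue, without overlap (112-fold higher, 6.81 ± 0.33, adjusted p = 2.4e-13). Treh, which splits trehalose, read 4.88, 4.28, 4.41 and 4.63 in P0 and 8.86, 10.30, 10.05 and 10.27 in adult tissue (40-fold higher, 5.32 ± 0.30, adjusted p = 3.2e-12). Mgam, which finishes starch digestion, was 3.99-fold higher, 1.995 ± 0.21, adjusted p = 9e-08. Lct, the lactase that splits milk sugar, overlapped between the ages, at 11.89, 11.69, 11.63 and 11.69 in P0 and 11.10, 11.96, 11.86 and 11.92 in adult tissue (-0.01 ± 0.39, adjusted p = 0.98).

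Of 12 brush border peptidases, 7 were higher and 0 lower in adult tissue. Xpnpep2, which cuts before proline, read 5.51, 5.79, 5.48 and 5.51 in P0 and 9.96, 8.55, 8.87 and 8.35 in adult tissue, without overlap (10.3-fold higher, 3.36 ± 0.28, adjusted p = 3.1e-09). Dpep1, a dipeptidase, read 8.64, 7.82, 8.37 and 8.45 in P0 and 10.43, 10.43, 10.39 and 10.35 in adult tissue (4.22-fold higher, 2.08 ± 0.41, adjusted p = 0.00042). Tmprss15, the enteropeptidase that starts the activation of trypsin, was at least 1.31-fold higher, adjusted p = 0.0076, and at least 2.14-fold higher without adult array 1. Without adult array 2 both means lay under the controls, at 2.82 and 3.90 (adjusted p = 0.014). Dpp4, Enpep, Mme and Mep1b were also higher, by 1.55, 1.34, 1.27 and 1.04 log2 units. Of 13 amino acid and peptide transporters, 5 were higher and 0 lower. Slc1a1, a carrier of glutamate and aspartate, read 5.16, 5.001, 5.14 and 5.23 in P0 and 9.63, 8.08, 8.14 and 7.71 in adult tissue (9.55-fold higher, 3.26 ± 0.32, adjusted p = 3.5e-08). Slc15a1, which takes up di- and tripeptides, read 9.46, 8.94, 8.98 and 9.15 in P0 and 11.11, 11.29, 11.39 and 10.66 in adult tissue (3.95-fold higher, 1.98 ± 0.29, adjusted p = 1.3e-05). Slc6a19, the main carrier of neutral amino acids, did not pass the test (0.37 ± 0.21, adjusted p = 0.2).

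Sugar transport and glucose synthesis moved in opposite directions within 1 list of 12 genes, of which 7 were higher and 4 lower. Slc5a1, the sodium-driven glucose carrier SGLT1, read 9.997, 9.91, 10.06 and 10.33 in P0 and 11.61, 11.70, 11.79 and 11.02 in adult tissue (2.74-fold higher, 1.46 ± 0.27, adjusted p = 0.0002). Slc5a4a and Slc5a4b, relatives of it, were 18.9-fold and 9.52-fold higher. Khk, which phosphorylates fructose, read 8.31, 8.12, 8.04 and 7.93 in P0 and 9.63, 10.15, 10.16 and 10.24 in adult tissue (3.85-fold higher, 1.95 ± 0.17, adjusted p = 3.9e-09). The 4 lower genes all act in glucose synthesis or release. Pck1, the enzyme that commits carbon to glucose synthesis, read 10.73, 10.32, 10.32 and 10.63 in P0 and 6.92, 7.94, 7.97 and 7.88 in adult tissue, and no arrays overlapped (7.07-fold lower, -2.82 ± 0.23, adjusted p = 1.8e-09). Fbp1 was 5.75-fold lower, -2.52 ± 0.29, adjusted p = 4.7e-07, G6pc 3.55-fold lower, -1.83 ± 0.40, adjusted p = 0.0011 and Slc37a4, which carries glucose 6-phosphate to G6pc, 1.86-fold lower, -0.89 ± 0.18, adjusted p = 0.00069.

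The machinery that takes up whole proteins was lower in adult tissue. Of 7 receptors and adaptors, 4 were lower and 0 higher, and of 25 lysosomal genes, 21 were lower and 1 higher. Dab2, a clathrin adaptor that draws receptors into vesicles, read 9.03, 8.77, 8.89 and 8.66 in P0 and 4.90, 5.08, 5.15 and 4.98 in adult tissue (14.1-fold lower, -3.81 ± 0.22, adjusted p = 4.8e-12). Fcgrt, the Fc receptor that carries milk IgG across the epithelium, read 11.78, 11.80, 11.57 and 11.48 in P0 and 8.34, 8.42, 8.43 and 8.45 in adult tissue (9.48-fold lower, -3.25 ± 0.26, adjusted p = 1.3e-09). Lrp2, the large scavenger receptor megalin, was at least 2.81-fold lower, adjusted p = 8.5e-11, while its partner Cubn did not pass the test (-0.40 ± 0.28, adjusted p = 0.31). Mcoln3, a calcium channel of endosomes and lysosomes, read 9.35, 9.56, 9.17 and 9.14 in P0 and 4.03, 5.71, 4.997 and 5.70 in adult tissue (18.4-fold lower, -4.20 ± 0.32, adjusted p = 6.5e-10). The cathepsin Ctsl read 10.04, 10.31, 10.22 and 9.90 in P0 and 6.35, 6.88, 6.78 and 6.83 in adult tissue (10.6-fold lower, -3.41 ± 0.21, adjusted p = 1.6e-11). The legumain gene Lgmn was 6.61-fold lower, the glucuronidase Gusb 5.62-fold, the sialidase Neu1 4.57-fold and the acid lipase Lipa 4.22-fold. The exception was Ctsc, a protease that activates the granule enzymes of lymphocytes and other leukocytes (1.64-fold higher, 0.71 ± 0.12, adjusted p = 0.00013).

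Several of the largest falls over all genes had the same direction and lay in no list. Folr1, a folate receptor, read 9.69, 9.99, 9.88 and 9.54 in P0 and 4.27, 4.36, 4.42 and 4.69 in adult tissue (40.6-fold lower, -5.34 ± 0.29, adjusted p = 2.1e-12). Meltf, an iron-binding relative of transferrin, read 10.73, 10.83, 10.76 and 10.60 in P0 and 5.49, 5.20, 5.15 and 5.74 in adult tissue (40.4-fold lower, -5.34 ± 0.18, adjusted p = 3.4e-16). Mamdc4, the apical endosomal glycoprotein of newborn enterocytes, read 11.21, 11.22, 11.18 and 11.12 in P0 and 5.75, 5.91, 5.76 and 6.10 in adult tissue (39.4-fold lower, -5.30 ± 0.19, adjusted p = 1.3e-15). Each of these genes separated the ages by more than 4 log2 units on every pair of arrays. Tfec, a relative of the lysosomal regulator Tfeb, was at least 20.4-fold lower, adjusted p = 5.3e-16. Paqr9 was 29.9-fold lower, -4.90 ± 0.32, adjusted p = 3.5e-11, Hyal5, of the hyaluronidase family, at least 5.92-fold lower, adjusted p = 1.7e-15 and Serpina1e, a protease inhibitor, 18.3-fold lower, -4.20 ± 0.17, adjusted p = 1.1e-14.

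Genes of fat handling were mixed, and most genes of fat burning were lower in adult tissue. Of 21 genes of lipid uptake and chylomicrons, 4 were higher and 9 lower. Cd36, a fatty acid receptor, read 9.88, 9.48, 9.60 and 9.73 in P0 and 6.31, 8.31, 7.86 and 7.84 in adult tissue (4.25-fold lower, -2.09 ± 0.38, adjusted p = 0.0002). Dgat2, which makes triglyceride, was 3.81-fold lower, -1.93 ± 0.23, adjusted p = 7.8e-07, while Dgat1, which does the same reaction, was 1.63-fold higher, 0.71 ± 0.14, adjusted p = 0.00048. Plin2, a coat protein of lipid droplets, was 3.67-fold lower, -1.88 ± 0.19, adjusted p = 5.9e-08, and Npc1l1, the cholesterol importer, was 1.91-fold higher, 0.94 ± 0.19, adjusted p = 0.00067. Apob and Apoa4, the proteins of chylomicrons, did not pass the test (-0.02 and 0.14, adjusted p of 0.95 and 0.72). Of 13 genes of fatty acid oxidation and ketogenesis, 9 were lower and 0 higher. Pdk4, which keeps pyruvate out of oxidation, read 9.54, 8.87, 9.20 and 10.46 in P0 and 5.43, 6.81, 7.21 and 7.57 in adult tissue (6.79-fold lower, -2.76 ± 0.40, adjusted p = 1.1e-05). Acadl, a dehydrogenase of long-chain fatty acids, was 3.48-fold lower and Cpt1a, the gate of fatty acids into mitochondria, 2.76-fold lower.

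Enzymes that clear drugs and food chemicals were higher in adult tissue in 19 of 23 genes, and 0 were lower. Cyp4f14, a lipid hydroxylase, read 5.13, 5.19, 5.28 and 5.29 in P0 and 11.44, 11.35, 11.38 and 11.19 in adult tissue (69.4-fold higher, 6.12 ± 0.25, adjusted p = 9.4e-15). Cyp3a11, a main drug oxidase of the mouse gut and liver, read 4.16, 3.75, 3.77 and 4.05 in P0 and 8.89, 10.35, 10.13 and 10.15 in adult tissue, lowest on adult array 1 among the adult arrays (at least 46-fold higher, adjusted p = 1.6e-12). Cyp3a25 was at least 61-fold higher, Cyp2b10 49.8-fold, and the carboxylesterases Ces2a and Ces1f 16.8-fold and at least 11.8-fold. The efflux pumps Abcb1a, Abcg2 and Abcc2 did not pass the test (0.84 ± 0.32, adjusted p = 0.052; 0.07 ± 0.14, adjusted p = 0.74; -0.60 ± 0.28, adjusted p = 0.11). In arginine metabolism, 4 of 10 genes were higher and 3 lower, and 3 were higher and 4 lower with arrays centred on their median. Arg2, which breaks arginine down, read 4.53, 4.42, 4.42 and 4.83 in P0 and 8.70, 10.16, 10.06 and 10.21 in adult tissue (37.6-fold higher, 5.23 ± 0.34, adjusted p = 2.9e-11). Asl and Aldh18a1, which act in the synthesis of arginine and of its precursor, were 2.43-fold lower, -1.28 ± 0.09, adjusted p = 1.2e-10 and 2.19-fold lower, -1.13 ± 0.12, adjusted p = 7.3e-08. Otc, of the same route, was 3.22-fold higher, 1.69 ± 0.20, adjusted p = 7.3e-07.

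Mineral and bile acid genes were lower where they passed the test, with few exceptions. Slc40a1, the iron exporter ferroportin, read 9.31, 9.44, 9.38 and 9.16 in P0 and 6.49, 5.73, 5.41 and 5.62 in adult tissue (11.4-fold lower, -3.51 ± 0.31, adjusted p = 6e-09). Cybrd1, the iron reductase of the duodenum, read 8.49, 8.998, 8.52 and 8.16 in P0 and 6.51, 6.34, 6.66 and 6.33 in adult tissue (4.24-fold lower, -2.08 ± 0.62, adjusted p = 0.015). S100g, the calcium carrier of enterocytes, was 3.33-fold lower, -1.74 ± 0.32, adjusted p = 0.0002. Vdr, the vitamin D receptor, went the other way, at 6.45, 6.84, 6.45 and 6.67 in P0 and 9.77, 10.04, 10.10 and 10.11 in adult tissue (10.6-fold higher, 3.40 ± 0.19, adjusted p = 1.9e-12). Of 8 bile acid genes, 4 were lower, among them the bile acid receptor Nr1h4 (2.57-fold lower, -1.36 ± 0.23, adjusted p = 6.1e-05) and its target Nr0b2 (2.58-fold lower, -1.37 ± 0.28, adjusted p = 0.00053). Fgf15, another target, read 5.54, 5.78, 6.66 and 6.10 in P0 and 5.43, 3.79, 3.54 and 4.20 in adult tissue (at least 3.07-fold lower, adjusted p = 0.037). It was at least 3.22-fold lower, adjusted p = 0.016, without adult array 1, and its call ended when any 1 of adult arrays 2 to 4 or P0 arrays 2 to 4 was left out (adjusted p from 0.057 to 0.11). Fabp6 and Slc10a2 did not pass the test with adult array 1 (1.32 ± 1.11, adjusted p = 0.39 for Fabp6; adjusted p = 0.19 for Slc10a2, whose means of 3.08 in P0 and 4.34 in adult tissue lay under the controls) or without it (adjusted p = 0.96 and 0.69).

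Of 18 genes of ion and water transport, 7 were higher and 0 lower. Car4, a carbonic anhydrase of the cell surface, read 5.28, 4.99, 5.17 and 5.33 in P0 and 10.26, 10.31, 9.97 and 9.32 in adult tissue (27.3-fold higher, 4.77 ± 0.17, adjusted p = 8.2e-16). Slc9a2, a sodium and proton exchanger, read 5.06, 4.63, 4.72 and 4.77 in P0 and 9.25, 9.43, 9.18 and 9.002 in adult tissue (21.4-fold higher, 4.42 ± 0.26, adjusted p = 5.4e-12). Claudins, which set the leak between cells, split, with 5 of 13 higher and 2 lower, or 3 and 4 with arrays centred on their median. Cldn15, which passes sodium, read 7.03, 7.42, 7.19 and 7.40 in P0 and 10.11, 10.27, 10.27 and 10.21 in adult tissue (7.74-fold higher, 2.95 ± 0.15, adjusted p = 8.4e-13). Cldn2, which also passes cations, read 6.22, 6.06, 6.29 and 6.71 in P0 and 5.23, 5.11, 4.60 and 4.88 in adult tissue (2.58-fold lower, -1.37 ± 0.19, adjusted p = 4.6e-06). Cldn3 was 4.08-fold higher and Cldn1 at least 2.27-fold lower. The transcription factor Prdm1, which holds back the adult enterocyte programme before weaning, was 2.84-fold lower, -1.51 ± 0.24, adjusted p = 3.8e-05. Hnf4g and Klf4, factors of mature epithelium, were 2.35-fold and 2.24-fold higher, while Gata6 was 1.58-fold lower.

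The secretory cell types did not move as 1 group. All 14 of 14 measured Paneth cell genes were higher in adult tissue, with mean levels of 4.80 to 5.55 on the P0 arrays and 8.84 to 9.73 on the adult arrays. Itln1, a lectin that binds microbial sugars, read 4.48, 4.85, 4.74 and 4.67 in P0 and 11.26, 11.10, 11.65 and 10.87 in adult tissue (92.7-fold higher, 6.54 ± 0.36, adjusted p = 1.7e-12). Lyz1, the lysozyme of Paneth cells, read 5.62, 6.07, 5.99 and 5.46 in P0 and 12.36, 11.89, 12.39 and 11.60 in adult tissue (77.7-fold higher, 6.28 ± 0.32, adjusted p = 6.1e-13). The defensin genes Defa21, Defa22 and Defa26 were 85.9-fold, 81.3-fold and 23.7-fold higher, but defensin genes are near-identical copies and their probe sets may share signal. Mptx2 and the protease Mmp7, which cuts prodefensins, were 28.1-fold and 16.7-fold higher, and Mptx2 was 18.7-fold higher without P0 array 1.

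Goblet cell genes were higher in 15 of 18. Zg16, which binds bacterial cell wall in mucus, read 7.61, 8.73, 7.99 and 8.26 in P0 and 12.71, 12.66, 12.73 and 12.69 in adult tissue (23.5-fold higher, 4.55 ± 0.35, adjusted p = 7.1e-10). Muc2, the gel-forming mucin, read 8.38, 9.81, 9.43 and 9.405 in P0 and 12.002, 11.40, 11.38 and 10.86 in adult tissue (4.45-fold higher, 2.15 ± 0.38, adjusted p = 0.00012). Fcgbp, Agr2 and Spink4 were 2.87-fold, 2.39-fold and 4.2-fold higher. Tuft cell genes were higher in 8 of 12, led by Rgs13 (at least 1.25-fold higher, adjusted p = 0.0012) and Sh2d6 (2.06-fold higher, 1.04 ± 0.30, adjusted p = 0.013). Without P0 arrays 1 and 4, 4 of the tuft cell genes passed.

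Hormone cell genes gave few calls, and the small counts of stem cell genes are not read as a change in these cells. Of 21 enteroendocrine genes, 0 were higher and 2 lower, and their mean level ran from 5.52 to 5.80 in P0 and from 5.62 to 5.97 in adult tissue. The 2 lower genes were Gal, a neuropeptide gene also used by enteric neurons (1.83-fold lower, -0.88 ± 0.07, adjusted p = 1.4e-09), and Scg3, of secretory granules (means of 4.40 in P0 and 3.72 in adult tissue, the lower of which is under the controls, adjusted p = 0.002). Chga, a granule protein of most of these cells, overlapped between the ages at 6.66, 6.96, 7.02 and 7.02 in P0 and 6.54, 7.23, 7.12 and 7.31 in adult tissue (0.13 ± 0.31, adjusted p = 0.78). In a fit of the 8 tissue arrays alone, 4 of these genes were higher. Of 17 stem cell and Wnt target genes, 4 were higher and 1 lower, against 15% and 12.2% of all genes. Olfm4, a crypt base gene, read 7.17, 8.09, 7.70 and 7.20 in P0 and 10.04, 10.12, 10.18 and 9.79 in adult tissue (5.64-fold higher, 2.50 ± 0.26, adjusted p = 8.8e-08). Prom1 and Axin2 were 4.41-fold and 2.37-fold higher, and Lgr5, the stem cell receptor, did not pass the test (0.80 ± 0.40, adjusted p = 0.14). Of 25 cell cycle genes, 8 were higher and 2 lower, which dropped to 4 higher without adult array 1 and to 3 higher without P0 arrays 1 and 4. The lower ones were Mcm2 (1.68-fold lower, -0.75 ± 0.16, adjusted p = 0.0008) and Mcm6 (1.53-fold lower, -0.62 ± 0.15, adjusted p = 0.0036), of the helicase that opens DNA for copying.

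Mucosal defence genes were higher in 15 of 20, and 1 was lower. Reg3g, a lectin that kills Gram-positive bacteria, read 3.62, 3.55, 3.63 and 4.66 in P0 and 11.65, 9.63, 9.33 and 7.998 in adult tissue (at least 39.3-fold higher, adjusted p = 5.8e-08), and at least 24.8-fold higher without adult array 1. The adult arrays spread over more than 3 log2 units, with array 1 highest and array 4 lowest. Pigr, which carries IgA through the epithelium, read 8.67, 8.27, 8.26 and 8.04 in P0 and 11.88, 11.84, 11.92 and 11.75 in adult tissue (11.6-fold higher, 3.54 ± 0.21, adjusted p = 1.2e-11). Duoxa2, which matures the oxidase Duox2, read 5.10, 4.88, 4.87 and 5.29 in P0 and 11.13, 7.09, 7.45 and 5.89 in adult tissue (7.23-fold higher, 2.85 ± 0.63, adjusted p = 0.0014), and the difference was 1.77, adjusted p = 0.00025 without adult array 1. Duox2 was 7.91-fold higher, 2.98 ± 0.56, adjusted p = 0.00023 and Nos2, which makes nitric oxide, 5.62-fold higher, 2.49 ± 0.56, adjusted p = 0.0015; without adult array 1 they were 2.04, adjusted p = 8.9e-06 and 1.80, adjusted p = 0.0063. Without adult array 4, Duoxa2, Duox2 and Nos2 differed by 3.52, adjusted p = 0.0001, 3.60, adjusted p = 1.1e-05 and 3.12, adjusted p = 5.7e-05. Tlr5, the flagellin receptor, was lower (2.53-fold lower, -1.34 ± 0.15, adjusted p = 4.5e-07). Ccl28, which draws plasma cells, and the lymphocyte cytokines Il15 and Il18 were 6.8-fold, 2.54-fold and 2.52-fold higher.

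The organoid arrays give an age difference that shares no array with the tissue, adult minus fetal organoids at day 3. In it, 4445 genes (14.5%) were called higher and 3099 (10.1%) lower. Both differences come from the same fit and share its estimate of each gene's spread, so their calls are not independent. Of the 799 genes at least 2-fold higher in adult tissue, 310 (38.8%) were also higher in adult organoids and 51 were lower. Of the 766 genes at least 2-fold lower in adult tissue, 416 (54.3%) were also lower in adult organoids and 27 were higher. In the class that is clear in organoids, which adult organoid levels help to define, these were 264 of 450 (58.7%) and 136 of 286 (47.6%), against 30.7% higher and 11.1% lower over all its genes. At day 30 the same counts over all genes were 66 of 799 (8.26%) and 64 of 766 (8.36%), against 6.8% higher and 2.17% lower of all genes. Without fetal day 3 arrays 2 and 3 they were 248 (31.0%) and 329 (43.0%), against 9.91% and 7.23%. Genes of stromal and immune lists were also lower in adult organoids at day 3. These were 18 of 21 collagens, 19 of 29 other matrix genes, 11 of 17 blood vessel genes and 13 of 20 macrophage genes. In the same lists 0, 0, 0 and 1 were higher. The part of non-epithelial cells of the fetal cultures in the shared falls was not tested.

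Named genes showed which tissue differences had a counterpart between the cultures. Sis differed by 4.63 ± 0.33, adjusted p = 2e-09 between adult and fetal organoids at day 3, Arg2 by 4.49, adjusted p = 3.6e-09 and Dab2 by -2.58, adjusted p = 2.4e-08, each in the direction of the tissue. Car4, Zg16 and Mptx2 did not follow it (-1.21, adjusted p = 1.6e-05; -0.20, adjusted p = 0.75; -0.55, adjusted p = 0.61). Of the genes named here, 14 were called in opposite directions in tissue and in organoids and also passed a further test. That test took the tissue difference minus the organoid difference in the same fit. Passing it was part of how these genes were chosen, so it adds no further evidence. For Gzmb, at means of 4.09 in fetal and 3.79 in adult organoids, the organoid levels lay at the controls and give no direction. Among the glucose synthesis genes, Fbp1, G6pc and Slc37a4 were higher in adult organoids (3.49, adjusted p = 2.1e-08; 1.79, adjusted p = 0.0016; 0.75, adjusted p = 0.004) where they were lower in adult tissue. Without fetal day 3 arrays 2 and 3, Fbp1 kept its organoid call (3.07, adjusted p of 3.8e-06), while G6pc (1.04, adjusted p of 0.072) and Slc37a4 (0.60, adjusted p of 0.074) did not. S100g, the calcium carrier, was likewise higher in adult organoids (1.76, adjusted p = 0.00027), and Klf4 lower (-1.42, adjusted p = 0.00016). Pck1 was -0.50, adjusted p = 0.12 in organoids. Of the 25 lysosomal genes, 0 were higher and 17 lower in adult organoids, and of the 13 genes of fatty acid oxidation, 3 were higher and 4 lower.

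**Figure D5:**
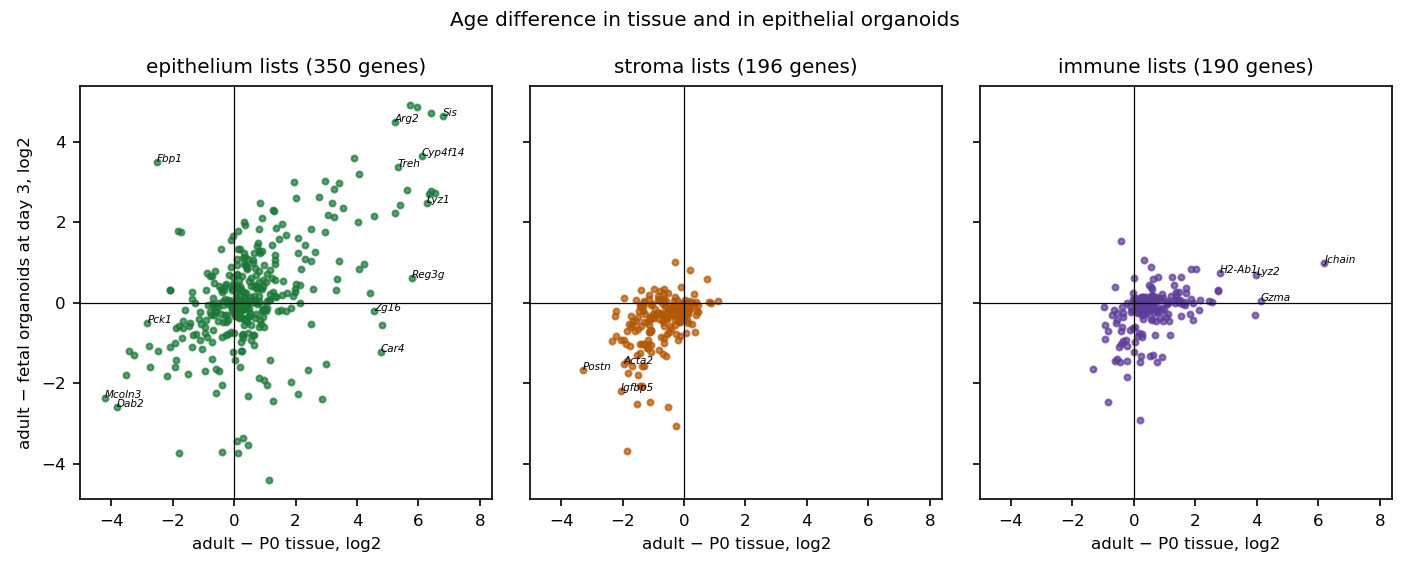
Difference between adult and P0 tissue (horizontal, log2) against the difference between adult and fetal organoids at day 3 (vertical, log2) for each gene of the epithelial, stromal and immune lists, leaving out 4 genes that are in lists of 2 compartments; each point is a gene. Epithelial genes such as Sis, Treh and Arg2 lie at the upper right and Dab2 and Mcoln3 at the lower left, while Jchain and Gzma, which are at background in organoids, lie far right.

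Connective tissue genes were lower in adult tissue, on the same arrays on which the pan-epithelial genes were higher; the part of the epithelial share in this was not tested. Of 19 fibroblast genes, 12 were lower and 1 higher, of 21 collagens, 14 lower and 0 higher, and of 29 genes of the remaining matrix and its crosslinking, 24 lower and 0 higher. Postn, a matrix protein of growing tissue, read 8.595, 8.43, 8.75 and 8.02 in P0 and 5.36, 5.22, 5.76 and 4.28 in adult tissue (9.8-fold lower, -3.29 ± 0.42, adjusted p = 1.6e-06). Igfbp5, which binds insulin-like growth factors, read 8.45, 8.25, 8.96 and 7.63 in P0 and 6.39, 6.37, 6.58 and 5.75 in adult tissue (4.14-fold lower, -2.05 ± 0.49, adjusted p = 0.003). Col1a2 and Col3a1, of the fibrillar collagens, were 2.48-fold lower, -1.31 ± 0.20, adjusted p = 2.9e-05 and 2.2-fold lower, -1.14 ± 0.16, adjusted p = 6.3e-06. Fstl1, a secreted glycoprotein, was 5.05-fold lower, Thbs2 4.69-fold and the elastic fibre gene Fbn2 4.12-fold. Dcn, the collagen-binding decorin, read 9.68, 9.82, 10.09 and 9.28 in P0 and 8.03, 8.23, 8.91 and 7.94 in adult tissue, without overlap. It did not pass the test in the fit of all 24 arrays, whose standard error includes organoid scatter (-1.44 ± 0.66, adjusted p = 0.11). Fbln1 was the exception (1.7-fold higher, 0.76 ± 0.14, adjusted p = 0.00021).

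Of 28 signals and receptors of the mesenchyme, 15 were lower and 2 higher. Bmp7, a ligand of the BMP family, read 8.31, 8.54, 8.43 and 7.99 in P0 and 6.09, 6.15, 6.01 and 6.19 in adult tissue (4.61-fold lower, -2.21 ± 0.15, adjusted p = 8.9e-11). Nrg1, a growth factor for epithelial ErbB receptors, read 7.08, 7.03, 7.07 and 6.74 in P0 and 5.26, 5.29, 5.50 and 5.13 in adult tissue (3.2-fold lower, -1.68 ± 0.11, adjusted p = 3.3e-11). Rspo3, which amplifies Wnt signals in crypts, was 2.18-fold lower, -1.13 ± 0.10, adjusted p = 9.7e-09, and Grem1, which blocks BMP, 2.01-fold lower, -1.01 ± 0.20, adjusted p = 0.0004. Ptch1, the hedgehog receptor and target gene, was 1.97-fold lower, -0.98 ± 0.12, adjusted p = 1.2e-06. Fgf7, a growth factor for epithelium, was called higher at low levels (means of 2.95 in P0 and 3.38 in adult tissue, both under the controls, adjusted p = 0.0033).

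Smooth muscle genes were lower in 14 of 18, and 0 were higher. Actg2, the actin of visceral muscle, read 9.12, 9.01, 9.31 and 9.12 in P0 and 7.21, 6.84, 7.33 and 6.17 in adult tissue (4.77-fold lower, -2.25 ± 0.15, adjusted p = 8.2e-11). Acta2, the actin of vessels and myofibroblasts, read 11.09, 10.99, 11.26 and 10.87 in P0 and 9.42, 9.05, 9.61 and 8.31 in adult tissue (3.88-fold lower, -1.96 ± 0.19, adjusted p = 2.6e-08). Adult array 4 was lowest for both. Myh11, the myosin of smooth muscle, was 2.7-fold lower, -1.43 ± 0.18, adjusted p = 2.1e-06, and Mylk, its kinase, did not pass the test (-0.25 ± 0.10, adjusted p = 0.084).

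Vessels showed the same direction. Of 17 blood vessel genes, 14 were lower and 0 higher, and of 7 lymphatic genes, 6 and 0. Cdh5, the adhesion protein of endothelium, read 8.405, 8.06, 8.31 and 7.83 in P0 and 5.89, 6.57, 6.36 and 6.22 in adult tissue (3.71-fold lower, -1.89 ± 0.17, adjusted p = 6.8e-09). Kdr, the VEGF receptor, read 7.72, 7.46, 7.53 and 7.19 in P0 and 5.61, 5.81, 5.88 and 5.50 in adult tissue (3.42-fold lower, -1.78 ± 0.11, adjusted p = 1.8e-11). Lyve1, a hyaluronan receptor of lymphatics and some macrophages, was 2.62-fold lower, -1.39 ± 0.15, adjusted p = 1.1e-07. Among 9 genes of the outer lining, 6 were lower, led by Upk3b (3.32-fold lower, -1.73 ± 0.38, adjusted p = 0.0011) and Gpm6a (2.97-fold lower, -1.57 ± 0.19, adjusted p = 6.9e-07).

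Enteric neurons and glia differed from each other in their counts. Of 23 neuronal genes, 14 were lower and 2 higher, while of 9 glial genes, 1 was lower and 2 were higher; the difference between the lists was not tested. Ret, the receptor that enteric neurons need, read 7.56, 7.92, 7.88 and 7.47 in P0 and 5.95, 5.72, 5.74 and 5.96 in adult tissue (3.64-fold lower, -1.86 ± 0.14, adjusted p = 2.9e-10). Elavl4, an RNA-binding protein of neurons, read 5.19, 5.27, 5.14 and 4.82 in P0 and 3.72, 3.77, 3.93 and 3.83 in adult tissue (at least 1.63-fold lower, adjusted p = 1.7e-11). Vip, a relaxing neuropeptide, went the other way (1.36-fold higher, 0.45 ± 0.09, adjusted p = 0.00034). Sox10, the glial transcription factor, overlapped at 5.85, 5.82, 5.95 and 6.18 in P0 and 5.71, 5.83, 5.83 and 6.15 in adult tissue (-0.07 ± 0.09, adjusted p = 0.59). Fabp7, a lipid binder of young glia, was at least 1.34-fold lower, adjusted p = 3e-09. Adipocyte genes, a mark of attached mesentery, were uneven: Adipoq read 2.60, 4.57, 4.08 and 2.94 on the adult arrays and 2.67 to 2.81 on the P0 arrays (means of 2.72 in P0 and 3.55 in adult tissue, both under the controls, adjusted p = 0.017), and the call ended without adult array 2 (adjusted p = 0.08) or without adult array 3 (adjusted p = 0.071).

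Growth genes of the fetus were lower in adult tissue. Of 13 measured imprinted growth genes, which are read from 1 parental copy, 12 were lower and 0 higher. Plagl1, a zinc finger factor, read 9.56, 9.37, 9.68 and 9.32 in P0 and 4.85, 4.90, 5.01 and 5.005 in adult tissue (23.3-fold lower, -4.54 ± 0.14, adjusted p = 1.2e-16). Igf2, the fetal growth factor, read 8.54, 8.61, 8.59 and 8.77 in P0 and 6.25, 5.62, 5.53 and 5.64 in adult tissue (7.28-fold lower, -2.87 ± 0.12, adjusted p = 3.4e-14). Peg3 and Grb10 were 10.7-fold and 8.11-fold lower, Dlk1 was 2.29-fold lower, and Magel2, at means of 4.41 and 4.40, did not pass the test (adjusted p = 0.98). Gpc3, a proteoglycan that restrains growth, and the RNA-binding protein Igf2bp3 were 22.1-fold and 8.96-fold lower.

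Dlk1 opens an imprinted region of chromosome 12 that carries many microRNA genes up to Dio3, and these were looked at together after their values were seen. MicroRNAs are short RNAs that silence messages which pair with their seed, bases 2 to 8. The probe sets are assigned to the microRNA genes, and their signal is no measure of the mature form. Of 46 measured microRNA genes between Dlk1 and Dio3, 21 (45.7%) were lower and 1 (2.17%) higher in adult tissue, while of 870 other microRNA genes 42 (4.83%) were lower and 77 (8.85%) higher. The median difference was -0.27 in the region and 0.08 for the other microRNA genes. Of the 28 microRNA genes that were at least 2-fold lower with no overlap between arrays, 26 had a mature sequence in RefSeq. The sequences shown are those of the 4 genes of the region with the largest differences, of 2 genes elsewhere that lay at background in organoids, and of the 1 that shares a seed with the region, 5′ to 3′ with the seed in capitals, and their positions in GRCm38.p6 follow.
miR-493-3p: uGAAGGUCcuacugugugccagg
miR-544-3p: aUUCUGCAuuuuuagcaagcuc
miR-329-3p: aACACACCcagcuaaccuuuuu
miR-665-3p: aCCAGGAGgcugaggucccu
miR-99a-5p: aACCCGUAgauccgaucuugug
miR-490-3p: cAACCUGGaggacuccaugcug
miR-362-3p: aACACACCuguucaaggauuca
The first 4 lie between Dlk1 and Dio3, at chr12:109580283-109580305, chr12:109729371-109729392, chr12:109713541-109713562 and chr12:109586368-109586387 on the plus strand. The others lie at chr16:77598940-77598961 and chr6:36421800-36421821 on the plus strand and chrX:7241984-7242005 on the minus strand. The 26 genes give 45 mature sequences with 44 seeds, and the shared one, ACACACC, belongs to miR-329-3p and miR-362-3p.

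Mir493 read 7.15, 6.74, 6.10 and 6.44 in P0 and 3.04, 3.15, 2.96 and 3.62 in adult tissue, without overlap (at least 4.61-fold lower, adjusted p = 4.7e-08). Mir544 read 7.58, 7.603, 7.25 and 6.99 in P0 and 4.73, 4.83, 4.93 and 4.92 in adult tissue (5.67-fold lower, -2.50 ± 0.17, adjusted p = 7.1e-11). Mir329 and Mir665 were at least 3.14-fold and at least 3.07-fold lower. Outside the region, Mir145a and Mir143, known for smooth muscle and other mesenchyme, read 8.55, 8.49, 8.69 and 8.23 and 8.49, 8.37, 8.75 and 8.36 in P0 and 5.71, 5.80, 5.59 and 5.46 and 6.13, 5.54, 5.57 and 6.01 in adult tissue (7.21-fold lower, -2.85 ± 0.12, adjusted p = 3.1e-14; 6.39-fold lower, -2.68 ± 0.16, adjusted p = 8e-12). Mir99a was at least 1.65-fold lower, adjusted p = 6.4e-09 and Mir490 at least 1.96-fold lower, adjusted p = 3.6e-11, and both lay at background in organoids.

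Immune genes were higher in adult tissue, among them those of lymphocytes and plasma cells. Of 14 genes shared by leukocytes, 12 were higher and 1 lower. Ptprc, the surface protein CD45, read 4.20, 4.21, 4.11 and 4.04 in P0 and 5.78, 6.08, 6.08 and 5.89 in adult tissue (at least 3.04-fold higher, adjusted p = 1.8e-11). Coro1a, an actin regulator of leukocytes, read 6.15, 6.12, 6.13 and 6.25 in P0 and 6.47, 6.73, 6.57 and 7.05 in adult tissue (1.45-fold higher, 0.54 ± 0.10, adjusted p = 0.00018). Lcp1, an actin bundler of leukocytes, was the exception (1.5-fold lower, -0.59 ± 0.15, adjusted p = 0.0046). The mean level of this list ran from 5.31 to 5.39 on the P0 arrays and from 5.76 to 6.25 on the adult arrays, highest on adult array 4, which also had the highest median of all probe sets. The part of that array's scale in the immune levels was not tested.

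Plasma cell genes were higher in 9 of 9. Jchain, which joins IgA units, read 3.12, 3.08, 2.88 and 2.85 in P0 and 8.92, 8.999, 9.25 and 9.54 in adult tissue, and its P0 values lay under the negative controls (at least 28.3-fold higher, adjusted p = 3.4e-16). Mzb1, a chaperone of antibody assembly, and the transcription factor Irf4 were 2.71-fold and at least 1.96-fold higher. Of 117 heavy chain and 86 kappa chain variable gene segments, 112 and 78 were higher and 0 were lower, with median differences of 2.67 and 2.21, or 1.81 and 1.502 where a mean under the controls is set to the control level. B cell genes were higher in 7 of 11, led by Cd79a, part of the B cell receptor, at 4.03, 4.02, 4.06 and 4.25 in P0 and 4.69, 4.79, 4.55 and 5.15 in adult tissue (at least 1.36-fold higher, adjusted p = 0.0013). In the fit of the 8 tissue arrays alone, 4 of the B cell genes passed.

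T cell genes were higher in 10 of 12. Cd3e, of the T cell receptor complex, read 4.14, 4.14, 4.03 and 4.33 in P0 and 5.84, 6.27, 6.51 and 6.62 in adult tissue (at least 3.87-fold higher, adjusted p = 4.9e-12). Genes of intraepithelial and cytotoxic lymphocytes were higher in 15 of 16 and lower in 0. The granzyme genes Gzma and Gzmb, which encode proteases of killer granules, read 4.16, 4.19, 4.11 and 4.03 and 3.94, 3.86, 3.77 and 3.75 in P0 and 7.83, 8.30, 8.23 and 8.65 and 7.78, 7.76, 7.73 and 7.76 in adult tissue (at least 14.9-fold higher, adjusted p = 1.6e-16; at least 10.6-fold higher, adjusted p = 1.3e-17). Itgae, the integrin that binds E-cadherin, was at least 3.11-fold higher, and Cd8a and Cd7 were 3.17-fold and at least 4.98-fold. Of 88 alpha chain variable segments of the T cell receptor, 14 (15.9%) were higher and of 21 beta chain segments 3 (14.3%), about the 15% of all genes, and of 7 gamma chain genes 5 were higher. All 7 gamma chain genes had a group mean under the controls. With such means set to the control level, their median difference was 0.046 and the largest 3.64.

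Macrophage, mast cell and granulocyte genes were called in both directions, against 15% higher and 12.2% lower of all genes. The counts are small and are not read as a change in these cell types. Of 20 macrophage genes, 5 were higher and 4 lower, and with arrays centred on their median 3 and 5. Lyz2, the lysozyme of macrophages, read 6.64, 6.70, 6.83 and 6.51 in P0 and 10.72, 10.56, 11.01 and 10.31 in adult tissue (15.8-fold higher, 3.98 ± 0.23, adjusted p = 3.2e-12), but its sequence is close to that of Lyz1 and the probe sets may share signal. Itgam, the integrin CD11b, was 1.86-fold higher, 0.90 ± 0.23, adjusted p = 0.0043. Csf1r, the receptor macrophages live on, read 7.13, 7.25, 7.24 and 6.89 in P0 and 6.12, 6.65, 6.68 and 7.15 in adult tissue (1.39-fold lower, -0.48 ± 0.14, adjusted p = 0.01), and the difference was -0.30, adjusted p = 0.044 without adult array 1. Folr2 and Mrc1, of resident macrophages, were 1.92-fold lower, -0.94 ± 0.17, adjusted p = 0.00021 and 1.52-fold lower, -0.60 ± 0.16, adjusted p = 0.0059, and C1qa did not pass the test (0.26 ± 0.14, adjusted p = 0.17). Dendritic cell genes were higher in 6 of 12, led by Itgax, the integrin CD11c (2.89-fold higher, 1.53 ± 0.14, adjusted p = 6.4e-09), and Clec9a, a receptor for dead cells (means of 3.03 in P0 and 4.14 in adult tissue, both under the controls, adjusted p = 1.2e-06). Of 11 mast cell genes, 1 was higher, the mucosal protease Mcpt1 (means of 2.95 in P0 and 4.02 in adult tissue, both under the controls, adjusted p = 3.1e-06), and 3 were lower, led by Cpa3 (means of 3.49 in P0 and 2.50 in adult tissue, both under the controls, adjusted p = 8.1e-08). Without adult array 1, 1 mast cell gene was lower. Of 14 granulocyte genes, 3 were higher, led by the eosinophil genes Prg2 (means of 3.33 in P0 and 4.30 in adult tissue, both under the controls, adjusted p = 6.7e-06) and Siglecf (at least 1.28-fold higher, adjusted p = 1.5e-05), and 2 lower, the neutrophil genes S100a8 (means of 3.13 in P0 and 2.27 in adult tissue, both under the controls, adjusted p = 0.0034) and Ngp (means of 4.18 in P0 and 3.52 in adult tissue, both under the controls, adjusted p = 0.00022).

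Antigen presentation genes were higher in adult tissue, in 9 of 10 class II genes and 11 of 11 class I genes. H2-Ab1, a chain of the class II molecule, read 7.27, 7.62, 7.12 and 6.96 in P0 and 10.57, 9.82, 10.01 and 9.71 in adult tissue (6.91-fold higher, 2.79 ± 0.20, adjusted p = 2.9e-10). H2-DMb1, which helps load peptide, read 5.01, 5.12, 5.08 and 4.98 in P0 and 9.10, 7.20, 7.88 and 6.98 in adult tissue (6.68-fold higher, 2.74 ± 0.27, adjusted p = 2.9e-08). Ciita, the master switch of class II transcription, read 4.68, 5.01, 4.77 and 4.87 in P0 and 6.19, 6.06, 5.91 and 6.01 in adult tissue (2.31-fold higher, 1.21 ± 0.08, adjusted p = 1.1e-10). Of the class I genes, 10 of 11 were clear in organoids, and the proteasome subunit Psmb9 was 2.91-fold higher, 1.54 ± 0.13, adjusted p = 1.7e-09 and the peptide pump Tap1 2.52-fold higher, 1.34 ± 0.12, adjusted p = 7.8e-09.

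Class II promoters share short motifs, and the stretches that hold them are shown because these genes moved together. The Y box GATTGG or its reverse complement CCAATC occurred within 250 bases before the start of 7 of the 9 promoters that the RefSeq table holds for class II list genes, against 14.6% of 32851 promoters, and the X box core TAGCAAC or GTTGCTA in 2 of them, against 3.16%. Each line gives the 130 bases before a start in GRCm38.p6, 5′ to 3′ on the strand of the gene, with these motifs in capitals. A match describes letters and not a bound site.
H2-Aa: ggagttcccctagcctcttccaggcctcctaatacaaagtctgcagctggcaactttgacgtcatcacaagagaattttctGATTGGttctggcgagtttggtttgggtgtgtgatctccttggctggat
H2-Eb1: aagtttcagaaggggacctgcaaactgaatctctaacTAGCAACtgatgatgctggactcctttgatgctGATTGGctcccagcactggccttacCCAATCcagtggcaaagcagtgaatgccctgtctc
H2-DMb1: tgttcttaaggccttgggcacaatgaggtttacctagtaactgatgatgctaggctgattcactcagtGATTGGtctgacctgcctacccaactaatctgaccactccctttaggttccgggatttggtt
H2-Ob: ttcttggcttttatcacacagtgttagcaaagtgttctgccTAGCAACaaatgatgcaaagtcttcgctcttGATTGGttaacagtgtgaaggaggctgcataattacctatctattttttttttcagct
These lie at chr17:34287824-34287953, minus strand for H2-Aa, chr17:34305737-34305866, plus strand for H2-Eb1, chr17:34153061-34153190, plus strand for H2-DMb1 and chr17:34238775-34238904, plus strand for H2-Ob. The Y box starts 49, 60, 62 and 58 bases before the start in that order, and the X box core 93 bases before that of H2-Eb1 and 89 bases before that of H2-Ob. In tissue, H2-Aa was 3.23-fold higher, 1.69 ± 0.22, adjusted p = 2e-06, H2-Eb1 6.66-fold higher, 2.73 ± 0.19, adjusted p = 1.5e-10 and H2-Ob had means of 3.37 in P0 and 3.81 in adult tissue, both under the controls, adjusted p = 0.013. Ctss, whose window holds neither motif, did not pass the test (-0.02 ± 0.17, adjusted p = 0.95). The 130-base windows of H2-DMa also hold neither motif, though a Y box lies 199 bases before 1 of its starts. Whether the motifs go with the tissue difference was not tested.

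Interferon-induced genes split in direction, with 11 of 26 higher and 6 lower. The higher ones included genes known for interferon gamma. Zbp1, a nucleic acid sensor, read 5.82, 5.97, 5.61 and 5.31 in P0 and 8.53, 7.72, 7.46 and 7.51 in adult tissue (4.37-fold higher, 2.13 ± 0.17, adjusted p = 9.4e-10). Igtp, a GTPase against microbes inside cells, read 5.997, 6.46, 6.71 and 5.88 in P0 and 8.26, 8.24, 8.24 and 8.05 in adult tissue (3.83-fold higher, 1.94 ± 0.17, adjusted p = 9e-09). Rsad2, an antiviral enzyme, was lower, at 6.12, 6.01, 7.04 and 6.505 in P0 and 4.38, 5.30, 5.09 and 5.54 in adult tissue (2.53-fold lower, -1.34 ± 0.21, adjusted p = 4.1e-05), as was Ifit2 (1.91-fold lower, -0.94 ± 0.23, adjusted p = 0.004). Without adult array 1, 3 genes of this list were lower. Of 20 chemokine and homing genes, 12 were higher and 3 lower, and 6 were higher without P0 arrays 1 and 4. Cxcl9, which draws T cells, read 2.81, 2.95, 2.71 and 3.06 in P0 and 5.71, 5.45, 5.46 and 5.13 in adult tissue (at least 2.12-fold higher, adjusted p = 8.4e-14). Tnfsf13b, the B cell survival factor BAFF, was 4.08-fold higher, 2.03 ± 0.14, adjusted p = 1.9e-10, and Ccr9, the receptor that guides lymphocytes to the small intestine, at least 1.12-fold higher, adjusted p = 1.1e-07. Cxcl12, a chemokine of stromal cells, was 1.64-fold lower, -0.71 ± 0.10, adjusted p = 1.4e-05.

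Several of the largest differences lay in genes of low or no organoid signal. Among genes at background in organoids, Ido1, which degrades tryptophan, read 3.53, 3.67, 3.56 and 3.78 in P0 and 6.96, 6.67, 6.58 and 6.52 in adult tissue (at least 5.01-fold higher, adjusted p = 5.9e-15). Slc5a12, a sodium-driven carrier of lactate, read 6.24, 5.17, 5.46 and 6.29 in P0 and 8.72, 9.20, 9.16 and 8.35 in adult tissue, above the controls on all 8 tissue arrays though below them in every organoid group (8.39-fold higher, 3.07 ± 0.23, adjusted p = 3.3e-10). Nox4, an oxidase, and Aspn, a small proteoglycan of connective tissue, were lower (at least 2.95-fold lower, adjusted p = 5.6e-13; 7.53-fold lower, -2.91 ± 0.32, adjusted p = 2e-07). Among genes low in organoids, Ly6m read 3.75, 3.78, 3.79 and 4.41 in P0 and 9.39, 8.56, 8.87 and 8.61 in adult tissue (at least 22.6-fold higher, adjusted p = 1.9e-15), Aspa, which splits acetylaspartate, was 13.3-fold higher, 3.73 ± 0.35, adjusted p = 1.6e-08, and Ptk6, a kinase of differentiated epithelium, was 9.37-fold higher, 3.23 ± 0.30, adjusted p = 1.6e-08. Gatm, the first enzyme of creatine synthesis, was lower, at 8.64, 8.02, 7.97 and 7.65 in P0 and 4.59, 4.80, 4.68 and 4.90 in adult tissue (10.1-fold lower, -3.33 ± 0.15, adjusted p = 6.9e-14). Ttr, the carrier of thyroxine, was clear in organoids of all 4 groups and 12.2-fold lower, -3.61 ± 0.19, adjusted p = 1.4e-12 in tissue, and Afp, the fetal albumin, was 7.35-fold lower, -2.88 ± 0.55, adjusted p = 0.00032, and 4.81-fold lower, adjusted p = 0.0015, without adult array 1.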

How the data were processed

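Total RNA was extracted with Trizol, and 1 µg was biotin-labelled for Affymetrix arrays, per the labels' protocols. The deposited log2 values were made by the authors with RMA in Affymetrix Expression Console, per the submitters' processing notes; its version is not given in the sources used here. Of 72688 probe sets, 6732 are controls, 5222 of them negative controls. GEO's platform annotation gave a symbol for 32750 of the remaining 65956 probe sets, with 1 gene for 31261 and several for 1489, and 1152 names were updated through RefSeq. This gave 30705 genes; for the 441 with several probe sets, the brightest on average was taken. Pdgfra was not measured alone.

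Group means of all 24 arrays were fitted with limma 3.58.1 in R 4.3.3 (moderated test, Benjamini-Hochberg adjustment over all genes), and the method was tested on simulated data. No array was dropped. Tables and figures were made in Python 3.11.15 with pandas 2.3.3, numpy 2.4.6 and matplotlib 3.10.9. Array number limits the precision.

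The members and the gene lists were chosen with earlier results of these data known. Named genes are list members, the 12 largest rises and 12 largest falls without overlap between arrays, and the 8 largest each way in each organoid class, leaving out provisional names and receptor segments; not all are printed. Alternatives changed the scaling, the filter on dim genes, the choice of probe set, the variance model, the threshold, the organoid cutoffs, the replicate block and the arrays used. The fit without adult array 1 and P0 arrays 1 and 4 was chosen after seeing the data.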

Additional observations from a re-analysis of the deposited data

Results flagged for a closer look

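Some values stood apart from the other 3 arrays of their group by the gap they left, a rule that chance meets in about 1 group in 20. Over all genes, the share of genes in which an array stood apart this way was 1.25%, 1.04%, 1.01% and 2.13% for P0 arrays 1 to 4, and 1.89%, 0.528%, 0.586% and 4.49% for adult arrays 1 to 4. Of the 231 genes named, adult array 1 stood apart in 19, adult array 4 in 4, P0 array 1 in 3, P0 array 2 in 2 and P0 array 4 in 9. All values here are log2 levels.

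Adult array 1 stood far above the other adult arrays in genes of bile acid uptake and response. It read Slc10a2, the ileal bile acid importer, at 7.18 against 3.34 to 3.42 on the others, and Fabp6, the ileal bile acid carrier, at 9.62 against 4.55 to 4.80. Nr1h4 was also higher there, at 8.98 against 7.43 to 7.59. It was higher by smaller gaps in Abcg2 8.53, Axin2 7.75, Ccl28 8.77, Igf2 6.25 and Krt8 12.07. It was lower than the others in Onecut2, a transcription factor of proximal gut epithelium, at 4.31 against 7.53 to 8.01, and in Afp at 4.62 against 6.85 to 7.22. The disaccharidase genes Lct and Treh, at 11.10 and 8.86, and Khk, which starts fructose breakdown, at 9.63, were also lowest there. The remaining low values of this array were Apoa4 9.65, Arg2 8.70, Cyp2b10 8.88, Cyp3a11 8.89, Fbln1 8.14 and Pck1 6.92. Adult array 4 was higher than the others in Cpa1 5.02, Dlk1 5.55 and Siglecf 5.01 and lower in Igtp 8.05.

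P0 array 1 read Mptx2 at 4.62 against 6.77 to 7.10 on the other P0 arrays, Chga at 6.66 and Slc6a19 at 9.60. P0 array 2 stood apart in Igf2bp3 8.03 and Xpnpep2 5.79. P0 array 4 was higher than the other P0 arrays in Reg3g, at 4.66 against 3.55 to 3.63, and in Cd79a 4.25, Duox2 4.87, Hoxb13 3.45 and Ly6m 4.41. It was lower in the interferon-induced gene Ifit2, at 5.10 against 6.004 to 6.071, and in Ctss 8.59, Nrg1 6.74 and Scg3 4.16.

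The age differences of 14 named genes ran in opposite directions in tissue (adult minus P0) and in organoids at day 3 (adult minus fetal). They were chosen by a call in both and by limma's test of the tissue difference minus the organoid difference, which brackets give. Passing that test is therefore no added evidence. Of these, 6 were lower in adult tissue and higher in adult organoids: Fbp1 (-6.01 ± 0.41, adjusted p = 4.5e-10), G6pc (-3.62 ± 0.56, adjusted p = 5.2e-05), Gata6 (-1.14 ± 0.13, adjusted p = 9.2e-07), Ptch1 (-1.32 ± 0.17, adjusted p = 6e-06), S100g (-3.50 ± 0.45, adjusted p = 6e-06) and Slc37a4 (-1.64 ± 0.26, adjusted p = 7.1e-05). The other 8 were higher in adult tissue and lower in adult organoids. Among them were the epithelial genes Car4 (5.98 ± 0.24, adjusted p = 8.2e-14), Cdh1 (1.08 ± 0.13, adjusted p = 1.9e-06), Duoxa2 (5.24 ± 0.90, adjusted p = 0.00016) and Klf4 (2.58 ± 0.35, adjusted p = 9.6e-06). The rest were the immune genes Coro1a (0.94 ± 0.14, adjusted p = 3.2e-05), Gzmb (4.22 ± 0.15, adjusted p = 1e-14) and Itgam (2.24 ± 0.32, adjusted p = 2.1e-05), and Ly6m (6.11 ± 0.26, adjusted p = 1.8e-13). The levels of Gzmb in organoids (means of 4.09 fetal and 3.79 adult) lay at the controls, as did those of Gzmb and Ly6m in P0 tissue (3.83 and 3.94), so the sizes for these genes are not exact and no organoid direction is read for Gzmb. The organoid calls of Coro1a, Duoxa2, G6pc, Ptch1 and Slc37a4 were lost without fetal day 3 arrays 2 and 3 (adjusted p of 0.065, 0.1, 0.072, 0.13 and 0.074).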

How the results depend on the processing

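Leaving out each tissue array in turn gave 3484 to 4797 genes higher and 3199 to 3548 lower, 787 to 843 and 732 to 875 of them at least 2-fold. The lists held 133 to 144 epithelial genes higher and 62 to 68 lower, 9 to 14 stromal genes higher and 115 to 126 lower, and 99 to 115 immune genes higher and 12 to 19 lower. The 2-fold genes clear in organoids numbered 445 to 487 higher and 274 to 316 lower, those at background 142 to 154 and 88 to 140, and those also called in organoids 304 to 329 and 396 to 443. Without P0 array 3, 12 immune genes were lower. Without P0 arrays 1 and 4, 6 stromal genes were higher. Without P0 arrays 2 and 3, 2481 genes were higher and 2526 lower, so the majority turned, with 6 stromal genes higher and 9 immune genes lower.

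The balance of higher against lower turned with the scaling. The counts were 4600 higher and 3733 lower as reported, 3080 and 4594 once each array was set to a common median, 3554 and 4688 after quantile normalization was repeated (8 stromal genes higher). Array weights gave 6522 and 4612. Centring on the 20 pan-epithelial genes left 743 higher and 27293 lower, 422 and 3776 of them at least 2-fold. It gave 88 epithelial genes higher and 165 lower, 0 stromal genes higher, 41 immune genes higher and 87 lower. Of the 2-fold genes it gave 213 higher and 1998 lower that were clear in organoids, 466 lower at background, and 170 and 1117 also called in organoids. It turned Abcg2 (-0.62), Atp4a (-0.49), C1qa (-0.43), Cdh1 (-0.14), Cdx2 (-0.38), Cela2a (-0.53), Coro1a (-0.15), Epcam (-0.24), Fgf7 (-0.25), H2-Ob (-0.25), Hoxb13 (-0.59) and Vip (-0.24) to the other direction. Of the 231 named genes, 197 kept direction and call under it and 229 with median centring.

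With only the 15714 genes above the array median on at least 4 tissue arrays, 3017 genes were higher, 4 stromal and 71 immune, and 3087 lower, and at background 73 genes were 2-fold higher and 21 lower. At an adjusted p under 0.01, 2707 genes were higher, 7 of them stromal, and 11 immune genes lower. A clear level set at 1 log2 unit gave 435 and one above the 90th percentile of the controls 189 clear genes 2-fold lower. With fetal day 3 organoids left out of the classes, 166 background genes were 2-fold lower. With organoids at day 30, 66 and 64 genes agreed in direction.

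Same-numbered P0 and adult arrays correlated in their deviations at 0.003, -0.049, 0.066 and 0.295. Pairs with different numbers ran from -0.156 to 0.137, so the arrays numbered 4 had the highest value. Whether the numbers pair the arrays was not tested further. With the replicate block, 4831 genes were higher and 3918 lower, against 4301 and 3835 in the fit of the 8 tissue arrays alone. Xist came to 0.088 without P0 arrays 1 and 4 and 0.057 without adult array 1 and P0 arrays 1 and 4. Probe sets near the controls limit what can be read of low genes.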
